A study of Mus musculus with 13 samples.

Results

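Gene expression after 4 cycles of cyclophosphamide (CPA) was set against expression after 2 cycles in 4T1 mouse mammary tumors. The members are all rows of the expression table that carry a gene symbol, 24170 of 24197 rows, read in the 2 group values that average 3 libraries each, 6 of the 13 libraries of the series. CPA is an alkylating prodrug that the liver activates. The 4T1 line is a transplantable carcinoma of BALB/c origin. It was grown here in the fat pad of a mammary gland, in females of the same strain, and the mice of both groups were injected with 130 mg/kg every 6 days. Each library pooled RNA from 2 to 3 tumors. The 2 cycle mice were 10 to 11 weeks old and the 4 cycle mice 12 to 13 weeks old, so further treatment and greater age cannot be told apart. Vehicle (3 libraries), 7 cycle (2 libraries) and regrowth values (2 libraries, taken 18 days after treatment ended at 4 cycles) are given only to place both groups. Vehicle mice were 10 to 11 weeks old, and 7 cycle and regrowth mice 14 to 15 weeks old.

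The study followed how tumors that stop growing under repeated CPA change as treatment goes on. CPA damages DNA, and cells with such damage can switch on type I interferon, which turns on antiviral genes. Interferon gamma is made instead by activated T cells and natural killer (NK) cells, and turns on guanylate-binding proteins, immunity-related GTPases and T cell attracting chemokines. Type I interferon can turn on some of these genes too. A tumor sample also holds the tumor's vessels, fibroblasts and matrix, and it can hold fat, skin or muscle from where the tumor grew.

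Each gene has 1 FPKM value (fragments per kilobase of transcript, scaled to mapped fragments) per group, the authors' mean over the pools, with no value per library and no sequencing depth in the table. No difference below therefore has a replicate check, an error or a test. Differences are given as log2((FPKM after 4 cycles + 0.1)/(FPKM after 2 cycles + 0.1)), here called the log2 ratio, on which changes of low genes come out too small. A gene was tested where the higher of both values was at least 1 FPKM, and called where the ratio was at least 2-fold. In all, 11655 genes were tested. Of these, 71 were called higher (0.609% of tested genes) and 69 lower (0.592%). With a limit of 1.5-fold, 183 genes were higher (1.57%) and 263 lower (2.26%), and 96.2% of tested genes lay within 1.5-fold. The median log2 ratio was 0.01, with 52.2% of tested genes above 0 and 47.8% below. The scatter was widest at low levels. The central 95% of log2 ratios ran from -0.79 to 0.72 among the 2740 genes whose higher value was 1 to 3 FPKM, from -0.39 to 0.33 among the 2936 genes at 10 to 30 FPKM, and from -0.49 to 0.39 among the 1322 genes at 30 FPKM or more.

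**Figure D1:**
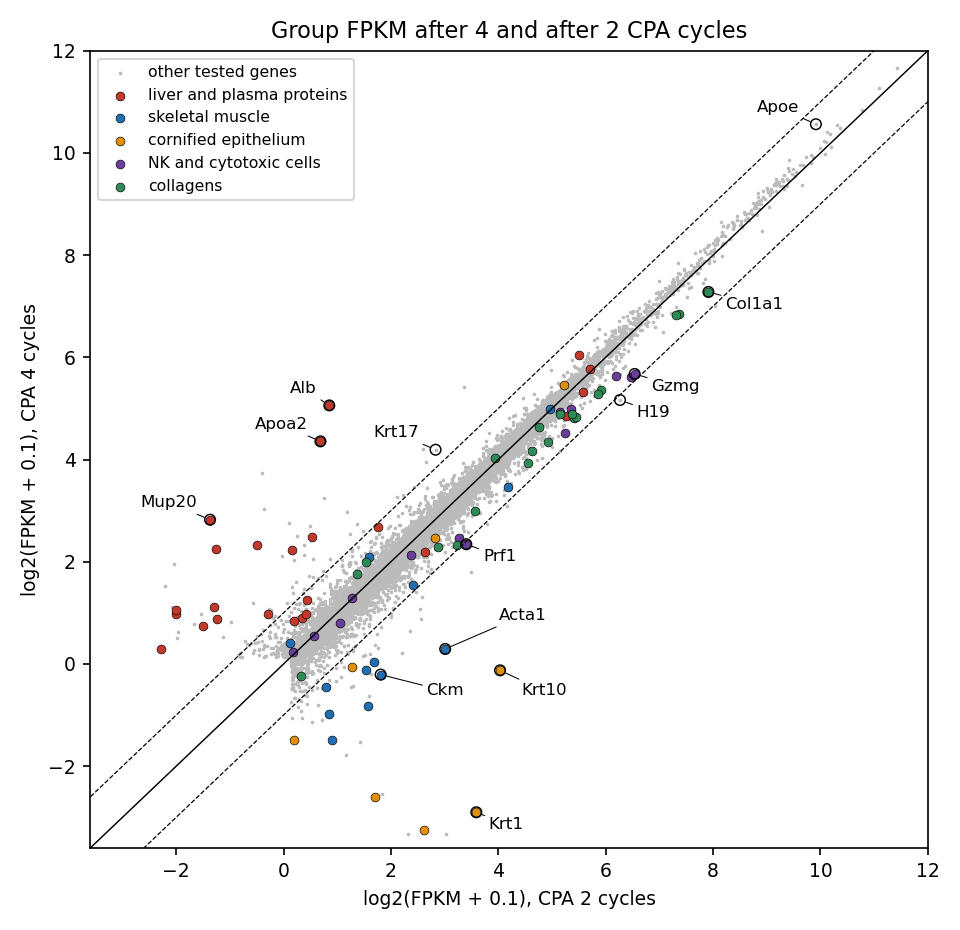
Each point is 1 of the 11655 tested genes, with log2(FPKM + 0.1) after 2 cycles on the x axis and after 4 cycles on the y axis; colors mark members of 5 gene lists, the solid line equality and the dashed lines 2-fold. Plasma protein genes such as Alb lie far above the lines and cornified epithelium and muscle genes such as Krt1 and Acta1 far below, while collagen and granzyme genes lie below equality but mostly within 2-fold.

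The samples carried the epithelial markers of the 4T1 line. Epcam read 55.2 FPKM after 2 cycles and 81.1 after 4 cycles, Krt8 262 and 295, and Krt18 270 and 303. Markers of B cells were under 1 FPKM, with Cd79a at 0.562 and 0.177 FPKM, and those of NK cells were low, with Ncr1 at 0.581 and 0.542 FPKM. In tumor RNA, fewer cells of a type and less RNA per cell cannot be told apart.

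The largest increases after 4 cycles were in genes for plasma proteins made by hepatocytes. Alb, which encodes serum albumin, read 1.70 FPKM after 2 cycles and 33.2 after 4 cycles (log2 ratio 4.21), against 2.06 in vehicle, 4.73 after 7 cycles and 14.1 in regrowth. Apoa2, an apolipoprotein of high-density lipoprotein, read 1.51 and 20.4 FPKM (3.67), with 10.4 in regrowth. The 4 cycle group was thus the highest of the 5 groups for both genes, and regrowth, whose mice had also received 4 cycles, was the next. Mup20, a major urinary protein, went from 0.287 to 6.97 FPKM (4.19) and was at or below 0.646 in the other 3 groups. Ttr, the thyroxine carrier transthyretin, read 0.32 and 4.62 FPKM (3.49), and Apoa1 0.606 and 4.91 (2.83).

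Of the 27 list members for liver and plasma proteins, all were found and 24 tested, of which 14 were called higher and 0 lower. In 10 of the 24, only the 4 cycle value reached 1 FPKM, so these passed through the group in which they were high. The median log2 ratio was 2.02 over the 24 tested members and 1.83 over all 27, against 0.01 over all tested genes. Among the 14 members at 1 FPKM or more in both groups the median was 0.61. The acute-phase genes that tumors also make moved less: Hp, which encodes haptoglobin, read 47.4 and 39.7 FPKM (-0.26), Saa3 38.4 and 28.6 (-0.43), and the copper carrier Cp 51.9 and 54.4 (0.07). By contrast Saa1 and Saa2, near-identical serum amyloid A genes, read 1.02 and 4.56 FPKM (2.06) and 1.33 and 5.53 (1.97), and were higher still after 7 cycles, at 12.5 and 9.21. They were the only 2 of the 14 called members with a 7 cycle value above the 4 cycle value. The other 12 were below it.

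Other genes of hepatocytes completed the 12 largest increases. Cyp3a11, a drug-metabolizing cytochrome P450, read 0.14 FPKM after 2 cycles and 3.78 after 4 cycles (4.00), and its 7 cycle value was 0.13. Gc, the vitamin D binding protein, read 0.12 and 2.77 (3.73). Fabp1, the liver fatty acid binding protein, read 0.67 and 8.06 (3.40), with 4.26 in regrowth. Mup3 reached 13.2 FPKM after 4 cycles (4.13), Mup7 2.05 (3.19), Mup1 1.97 (3.05) and Serpina1a, an alpha-1 antitrypsin gene, 1.88 (2.98). In all 7 of the 7 tested genes named Mup with a number were called higher, against 0.609% of all tested genes. Mup1, Mup3, Mup7 and Mup20 were below 1 FPKM after 2 cycles and so passed only through the group in which they were high. The Mup genes form a cluster of near-identical copies, as do the Serpina1 genes, so the share of reads given to each copy is uncertain.

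The promoters of Alb and Gc are shown because hepatocyte genes are classically read through the liver factor HNF1. Both are RefSeq windows of 300 bases on GRCm38.p6, 250 before to 50 after the gene start. Alb lies on chr5:90460620-90460919, plus strand, and Gc on chr5:89457849-89458148, minus strand. Capitals mark GTTAATNAT, the first part of the HNF1 motif, which begins 32 bases before the start in Alb and 52 bases before it in Gc.
Alb: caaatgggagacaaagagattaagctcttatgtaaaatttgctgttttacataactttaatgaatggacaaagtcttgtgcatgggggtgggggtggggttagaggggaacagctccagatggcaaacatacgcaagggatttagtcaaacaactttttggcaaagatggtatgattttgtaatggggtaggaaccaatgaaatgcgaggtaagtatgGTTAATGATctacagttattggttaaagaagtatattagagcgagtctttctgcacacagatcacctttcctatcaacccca
Gc: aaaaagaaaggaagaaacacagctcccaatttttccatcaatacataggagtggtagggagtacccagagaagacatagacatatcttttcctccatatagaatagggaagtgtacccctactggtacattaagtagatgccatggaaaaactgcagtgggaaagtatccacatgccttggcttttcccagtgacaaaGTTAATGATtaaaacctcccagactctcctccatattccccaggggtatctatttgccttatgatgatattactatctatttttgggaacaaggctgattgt
Both strands were searched. The longer motif, searched first, was found in fewer promoters of all genes and in no tested list member with a promoter in the table, so both promoters were chosen on the shorter form. These letters are in 0.801% of all 32851 RefSeq mouse promoters of this length and in 2 of the 15 tested list members that had a promoter in the table. Alb is 1 of these 2, while Gc is not on the list. Tested members with and without the letters had median log2 ratios of 2.14 and 1.97. A match is a run of letters and not a shown binding site.

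**Figure D2:**
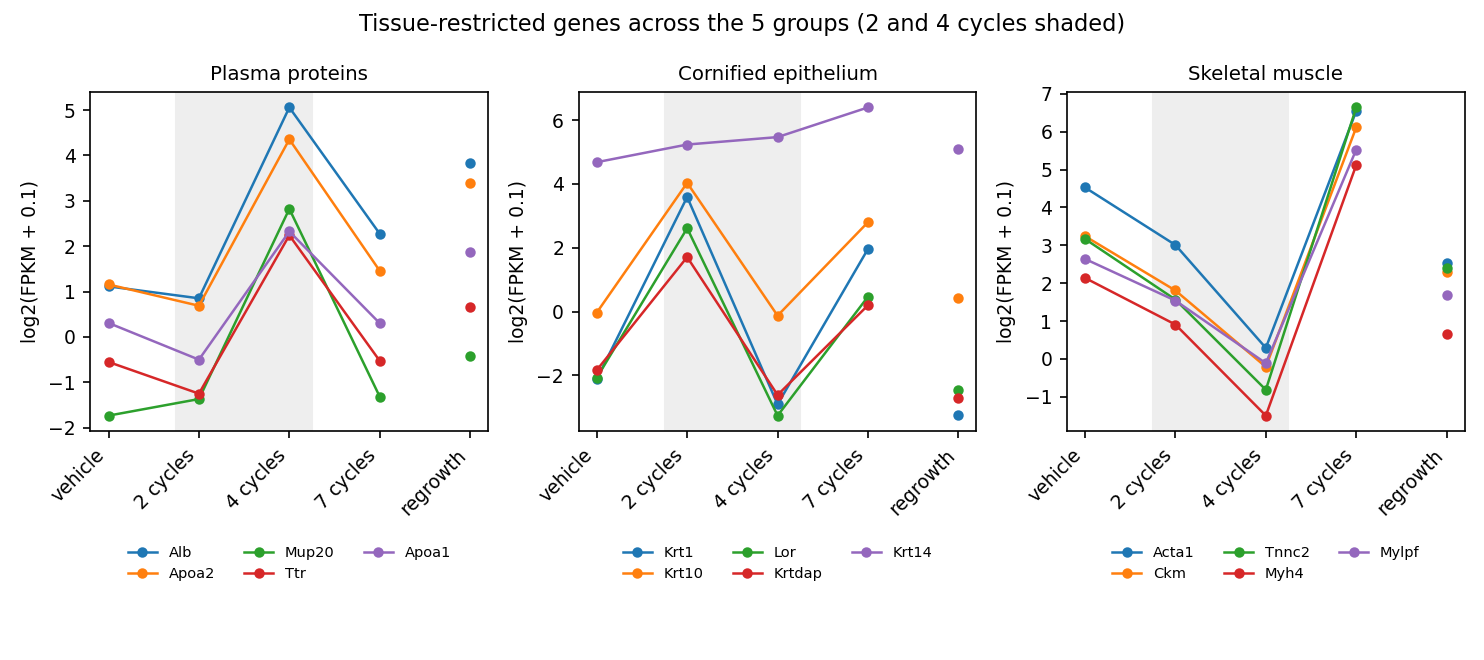
Group FPKM as log2(FPKM + 0.1) for 5 genes each of plasma proteins, cornified epithelium and skeletal muscle; each point is 1 group value with no error, lines join vehicle, 2, 4 and 7 cycles, regrowth stands apart, and 2 and 4 cycles are shaded. Plasma protein genes peak after 4 cycles, Krt1, Krt10, Lor and Krtdap are high after 2 and 7 cycles while Krt14 stays between 25.5 and 84.1 FPKM, and muscle genes are lowest after 4 cycles and highest after 7.

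The largest decreases were in genes of the cornified outer skin layers. Krt1, a keratin of the suprabasal epidermis, read 11.9 FPKM after 2 cycles and 0.0336 after 4 cycles (log2 ratio -6.49), against 0.13 in vehicle, 3.80 after 7 cycles and 0.00489 in regrowth. Krt10, its partner keratin, read 16.3 and 0.816 FPKM (-4.16). Lor, which encodes the cornified envelope protein loricrin, read 6.01 and 0.00457 FPKM (-5.87), and Krtdap 3.17 and 0.0637 (-4.32). These genes were high in the 2 and 7 cycle groups and low in the other 3. Calm4, a calmodulin-like protein of skin, read 8.05 FPKM after 2 cycles and was listed at 0 after 4. Krt6b and Krt6a, keratins that are close copies of each other, read 3.44 and 0.07 FPKM (-4.37) and 2.58 and 0.25 (-2.95), and were low after 7 cycles too, at 0.307 and 0.402. Dmkn, a secreted epidermal protein, read 2.12 and 0.19 FPKM (-2.94).

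Of 22 cornified epithelium genes, 21 were found and 8 tested, with 6 called lower and 0 higher and a median log2 ratio of -2.92. Those 6 were below 1 FPKM after 4 cycles and had passed through their 2 cycle value. The 2 members at 1 FPKM or more in both groups mark the basal layer and also basal mammary cells: Krt5 read 6.99 and 5.39 FPKM (-0.37) and Krt14 37.5 and 44.1 (0.23). Over all 21 found members the median was -1.35.

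Skeletal muscle genes were also lower after 4 cycles. Acta1, the actin of skeletal muscle fibers, read 7.95 FPKM after 2 cycles and 1.12 after 4 cycles (-2.72), against 23.0 in vehicle, 93.6 after 7 cycles and 5.70 in regrowth. The 4 cycle value was the lowest of the 5 groups. Myh4, a fast myosin heavy chain, read 1.78 and 0.254 FPKM (-2.41), Tnnc2, fast troponin C, 2.86 and 0.469 (-2.38), and Ckm, muscle creatine kinase, 3.40 and 0.765 (-2.02). Of 32 muscle genes, 13 were tested, 8 were called lower and 0 higher, and the median log2 ratio was -1.64. All 13 were higher after 7 than after 4 cycles, and 11 of 13 were below vehicle after both 2 and 4 cycles. In 8 of the 13 only 1 of the 2 groups reached 1 FPKM, and over all 32 members the median was -0.93. The cardiac and slow muscle gene Tnnc1 read 2.91 and 4.16 FPKM (0.50). The Acta1 promoter on chr8:123894726-123895025 (GRCm38.p6, minus strand) is shown with its CArG box, the element bound by serum response factor, in capitals from 73 bases before the start.
Acta1: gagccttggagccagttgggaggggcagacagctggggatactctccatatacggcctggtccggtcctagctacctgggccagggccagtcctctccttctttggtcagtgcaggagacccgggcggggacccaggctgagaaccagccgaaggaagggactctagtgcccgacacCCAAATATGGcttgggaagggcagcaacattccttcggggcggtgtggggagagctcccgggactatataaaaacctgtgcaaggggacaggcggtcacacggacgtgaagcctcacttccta
The CArG box is in 1.63% of all promoters and in 2 of the 11 muscle genes that were tested and matched.

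The summed FPKM of each tissue list is given for the groups, though a few high members make up much of the 2 and 4 cycle sums. The liver and plasma protein list summed to 206 FPKM after 2 cycles and 300 after 4 cycles, and to 162 to 242 in the other 3 groups. The muscle list summed to 90.8 and 59.4 FPKM, with 794 after 7 cycles, and the cornified list to 88.0 and 51.9, with 112 after 7 cycles. After 4 cycles Trf, Cp, Hp and Saa3 of the liver list read 66.2, 54.4, 39.7 and 28.6 FPKM. Eno3 of the muscle list read 31.1 and 31.8 FPKM after 2 and 4 cycles, and Krt14 made up most of the cornified sum after 4 cycles. The sums therefore do not follow the genes with the largest changes alone. Without these 3 lists, a count chosen after seeing the data, 57 genes were called higher and 55 lower. Only list members were left out. The 57 still hold hepatocyte genes such as Mup3, Cyp3a11, Gc and Fabp1, and the 55 still hold skin genes such as Calm4 and Dmkn. Values for single libraries were not used here, so whether 1 pool carries any of these group values was not tested.

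Cytotoxic granule genes, the killing machinery of T and NK cells, were lower after 4 than after 2 cycles. Prf1, the pore-forming protein perforin, read 10.5 FPKM after 2 cycles and 4.97 after 4 cycles (-1.06), against 1.53 in vehicle, 0.99 after 7 cycles and 0.796 in regrowth. Gzmb read 9.48 and 5.44 FPKM (-0.79). Gzmg and Gzmd, granzymes of mouse activated killer cells, read 92.9 and 51.0 (-0.87) and 88.2 and 48.7 (-0.86), and Gzme 37.5 and 22.8 (-0.72). All 5 genes were highest after 2 cycles, next highest after 4 cycles, and below vehicle after 7 cycles. The granzymes from Gzmc to Gzmg are neighboring copies on chromosome 14, so their separate values are uncertain.

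The list for NK and cytotoxic cells had 23 members, of which 13 were tested, with 1 lower and 0 higher at 2-fold, 5 lower and 0 higher at 1.5-fold, and 11 of 13 below 0. The median log2 ratio was -0.36. All 13 were above vehicle in both groups, and all 13 were lower after 7 than after 4 cycles. The receptors of NK cells differed little, with Klrd1 at 2.31 and 2.35 FPKM (0.02) and Klrk1 at 1.37 and 1.35 (-0.02), and Ccl5, a chemokine of activated T and NK cells, read 35.3 and 30.4 (-0.21). With a pseudocount of 1 FPKM, Prf1 missed the 2-fold limit at -0.94 and 0 members were called.

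T cell genes were lower as a group. Cd2, an adhesion receptor, read 1.44 and 0.626 FPKM (-1.09) and Cd4, the helper T cell coreceptor, 1.22 and 0.558 (-1.0). Lat, a signaling adaptor, read 2.34 and 1.14 (-0.98), and Thy1, which fibroblasts also make, 34.3 and 21.8 (-0.65). Of 11 tested members, 2 were called lower and 0 higher, and 11 of 11 were below 0, with a median of -0.52. The called members, Cd2 and Cd4, passed only through their 2 cycle value. The other 9, at 1 FPKM or more in both groups, had a median of -0.44. With a pseudocount of 1 FPKM, 0 of the 11 were called. The coreceptor of cytotoxic T cells differed less than Cd4: Cd8a read 2.32 and 1.88 FPKM (-0.29) and Cd8b1 1.85 and 1.34 (-0.44). All of these values are under 3 FPKM apart from Thy1, where single genes scatter most. Among checkpoint and regulatory genes, 9 of 9 tested were below 0 (median -0.35, 1 called lower). Pdcd1lg2, the called member, and Tnfrsf4 passed only through their 2 cycle value, and the other 7 had a median of -0.34. Pdcd1lg2, a ligand of PD-1, read 2.08 and 0.857 FPKM (-1.19), Tnfrsf4 1.25 and 0.739 (-0.68), Tigit 8.28 and 5.43 (-0.60) and Cd274, the ligand PD-L1, 10.6 and 8.27 (-0.35). Foxp3, the factor of regulatory T cells, and Ifng stayed under the minimum of 1 FPKM in both groups.

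Interferon gamma responsive genes and interferon-stimulated genes (ISGs) lay on opposite sides of 0. None of the 22 gamma responsive or the 41 ISG members passed 2-fold. At 1.5-fold 2 gamma responsive members, Cxcl9 and Socs1, were lower and 0 ISGs passed, and 20 of 22 gamma responsive members were below 0 and 32 of 41 ISGs above it. The medians were -0.24 and 0.13, and no test of their difference was made. The lists do not separate responses to type I interferon from those to interferon gamma. Igtp and Cxcl11, on the gamma responsive list here, were measured as ISGs in the study. It reported that blocking the type I interferon receptor fully prevented Igtp induction by activated CPA in cultured 4T1 cells. Cxcl9, a chemokine that attracts T cells, read 17.1 FPKM after 2 cycles and 10.5 after 4 cycles (-0.70), Socs1, a feedback inhibitor of the pathway, 15.4 and 9.97 (-0.62), Ciita, the master factor of MHC class II, 4.43 and 3.14 (-0.48) and Iigp1, an immunity-related GTPase, 38.8 and 27.8 (-0.48). Cxcl11, a ligand of the same receptor as Cxcl9, read 9.56 and 8.14 (-0.23). Nearly all gamma responsive genes were above vehicle in both groups (21 of 22), and nearly all were lower after 7 cycles than after 4 (21 of 22).

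Among ISGs, Oasl1, an antiviral regulator, read 15.7 and 22.3 FPKM (0.51), Ifit1, which binds viral RNA, 10.7 and 14.4 (0.43) and Ifi44l 18.2 and 23.7 (0.38). Rsad2, which encodes viperin, read 6.52 and 8.33 FPKM (0.35) and Mx1, an antiviral GTPase, 6.4 and 6.99 (0.13). Cxcl10, which both interferon types can induce, went the other way, with 22.8 and 17.1 FPKM (-0.41). All 41 ISGs were above vehicle after both 2 and 4 cycles. Summed over the list, ISG levels were 938 FPKM after 2 cycles and 995 after 4 cycles, against 331 in vehicle and 433 in regrowth. The gamma responsive list summed to 514 and 427 FPKM, against 217 and 206. With each group rescaled to a common sum of FPKM, the ISG median was 0.05 with 26 of 41 members above 0, and the gamma responsive median was -0.31 with 21 of 22 below 0.

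The promoters of Ifit1, Cxcl10 and Igtp are shown because they hold elements of these pathways and their genes differ in direction. Igtp, a GTPase of the gamma responsive list, read 59.1 and 48.7 FPKM (-0.28). The windows, on GRCm38.p6, are chr19:34640639-34640938 on the plus strand for Ifit1, chr5:92348840-92349139 on the minus strand for Cxcl10 and chr11:58199306-58199605 on the plus strand for Igtp. Capitals mark the interferon-stimulated response element (ISRE, searched as GAAANNGAA on both strands) and, in Igtp only, also the gamma-activated site (GAS, TTCNNNGAA).
Ifit1: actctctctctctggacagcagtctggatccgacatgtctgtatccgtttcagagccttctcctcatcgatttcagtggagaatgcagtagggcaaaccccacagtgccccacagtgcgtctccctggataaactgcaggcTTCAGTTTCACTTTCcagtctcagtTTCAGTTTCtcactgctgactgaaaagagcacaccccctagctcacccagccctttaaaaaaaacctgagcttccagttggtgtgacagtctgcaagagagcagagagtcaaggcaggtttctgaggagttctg
Cxcl10: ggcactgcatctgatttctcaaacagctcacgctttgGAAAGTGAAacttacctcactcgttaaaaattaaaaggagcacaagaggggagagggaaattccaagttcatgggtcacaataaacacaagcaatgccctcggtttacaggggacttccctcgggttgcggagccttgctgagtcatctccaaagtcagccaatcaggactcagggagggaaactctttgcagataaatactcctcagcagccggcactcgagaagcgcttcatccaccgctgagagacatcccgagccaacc
Igtp: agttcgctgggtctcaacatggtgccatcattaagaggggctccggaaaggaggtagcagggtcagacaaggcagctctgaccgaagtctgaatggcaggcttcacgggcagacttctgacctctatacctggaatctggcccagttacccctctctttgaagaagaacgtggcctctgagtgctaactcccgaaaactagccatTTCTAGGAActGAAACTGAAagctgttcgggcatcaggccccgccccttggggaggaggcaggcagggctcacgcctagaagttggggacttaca
Ifit1 has 3 matches to the ISRE, which begin 109, 103 and 84 bases before the start and of which the first pair overlap, and Cxcl10 has 1, 213 bases before it. Igtp has a GAS at 45 bases and an ISRE at 34 bases before the start. An ISRE was in 17 of 29 matched ISG promoters and in 11 of 12 matched gamma responsive promoters, against 8.56% of all promoters. A GAS was in 6 of 29 and 7 of 12, against 8.30%. A form of the ISRE that is 1 letter longer, searched first, was found in fewer promoters of all genes and of both lists. ISGs with and without an ISRE had median log2 ratios of 0.14 and 0.10. Both lists thus hold the ISRE in a larger share of promoters than all genes do.

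**Figure D3:**
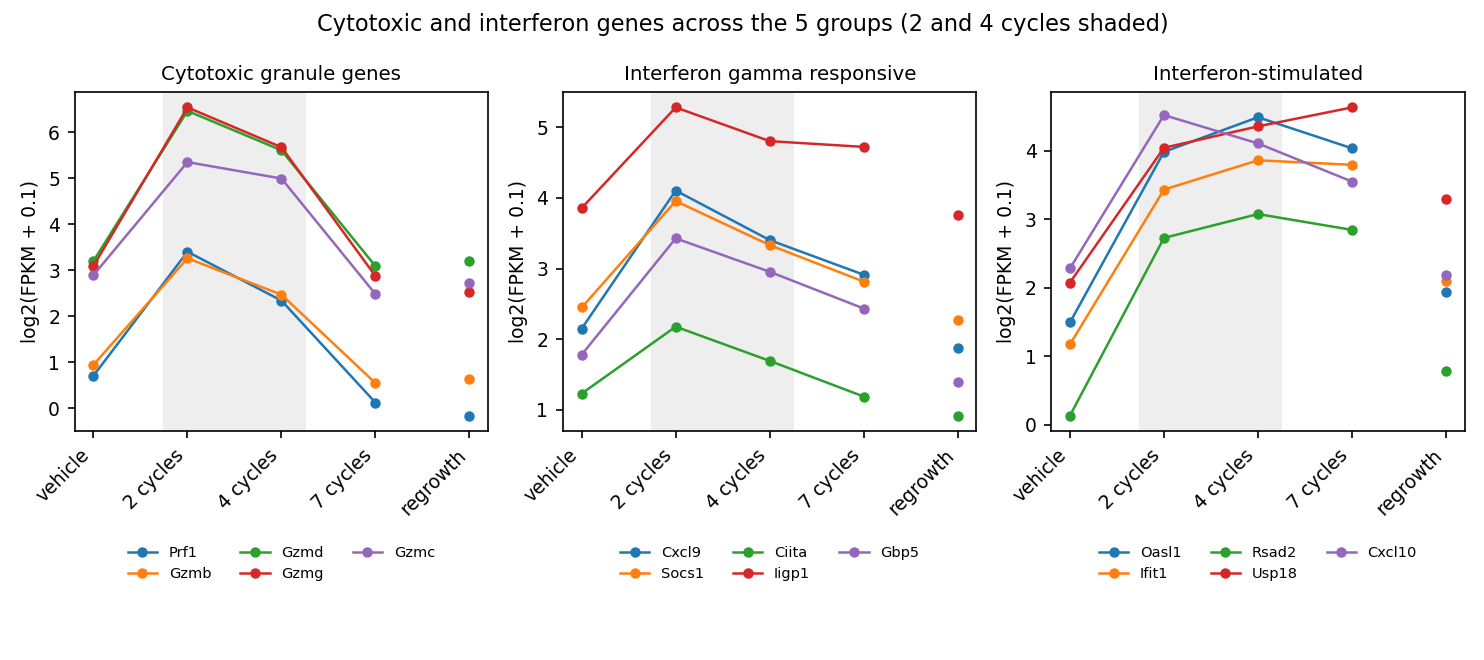
Group FPKM as log2(FPKM + 0.1) for 5 cytotoxic granule genes, 5 interferon gamma responsive genes and 5 ISGs; each point is 1 group value with no error, lines join vehicle, 2, 4 and 7 cycles, regrowth stands apart, and 2 and 4 cycles are shaded. Granule and gamma responsive genes peak after 2 cycles and are lower after 4 and 7 cycles, while Oasl1, Ifit1, Rsad2 and Usp18 are higher after 4 than after 2 cycles and Cxcl10 is lower.

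Antigen presentation genes differed little. For MHC class I, 16 members were tested with 0 called and a median of 0.07, which rescaling to a common sum of FPKM took to just under 0. H2-K1, a class I heavy chain, read 13.0 and 17.3 FPKM (0.41), Tap1, a peptide transporter, 50.1 and 42.9 (-0.22), and the immunoproteasome genes Psmb8 193 and 222 (0.20) and Psme1 139 and 162 (0.21). For class II, 10 were tested with 0 called and a median of 0.04, or -0.04 when rescaled, and Cd74, the invariant chain, read 463 and 479 FPKM (0.05). Ciita, its activator, was the lowest of these 10 at -0.48. Ctss, the protease that trims the invariant chain, read 227 and 278 (0.29), H2-DMb1, a peptide exchange factor, 4.72 and 4.30 (-0.13) and H2-Eb1 83.2 and 89.3 (0.10).

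Myeloid genes split by cell type and maturity. Most genes of the primary granule and precursor list were higher. Neutrophil precursors make primary granule proteins in the marrow before the cells mature. Elane, neutrophil elastase, read 1.08 and 2.92 FPKM (1.35) and Prtn3, proteinase 3, 2.70 and 5.98 (1.12). Mpo, myeloperoxidase, read 1.18 and 2.5 (1.03) and Ctsg, cathepsin G, 2.94 and 3.78 (0.35). Of the 6 tested members, 3 were called higher and 0 lower, with a median of 0.69, and Elane, Prtn3 and Mpo were higher again after 7 cycles. With a pseudocount of 1 FPKM none of the 3 passed 2-fold. Nkg7, the tested member below 0, read 5.08 and 4.27 FPKM (-0.25). Cebpe and Gfi1, under 1 FPKM in both groups and not tested, had log2 ratios of -0.26 and -0.16. Over all 11 found members 8 lay above 0 and 3 below, with a median of 0.38. Genes of mature neutrophils mostly lay below 0 (13 of 16, median -0.43, 0 called at 2-fold and 5 lower at 1.5-fold). Cxcr2, the receptor that guides mature neutrophils, read 2.00 and 1.08 FPKM (-0.83), G0s2 2.93 and 1.74 (-0.72), Retnlg 14.1 and 8.88 (-0.66) and Csf3r, the receptor for G-CSF, 6.03 and 3.95 (-0.60). The alarmins S100a8 and S100a9 read 114 and 127 FPKM (0.15) and 126 and 120 (-0.08). Secondary granule genes lay on both sides (8 of 15 above 0, median 0.09 over tested members and -0.02 over all 16 found), with Ngp at 19.6 and 29.2 FPKM (0.57) and Stfa3 at 7.38 and 4.62 (-0.66). BC100530, a stefin A family gene, read 15.4 and 8.99 (-0.77), and the collagenase Mmp8 2.45 and 1.65 (-0.55).

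Mast cell genes were lower after 4 cycles. Tpsab1 and Tpsb2, neighboring tryptase genes that are near copies, read 5.76 and 1.74 FPKM (-1.67) and 3.27 and 1.14 (-1.45). Cpa3, mast cell carboxypeptidase, read 1.16 and 0.501 (-1.07) and Mcpt4, a chymase, 2.09 and 1.17 (-0.79). Of 9 tested members of the mast cell and eosinophil list, 3 were called lower and 0 higher, and the median was -0.58. With a pseudocount of 1 FPKM, 1 was called. All 9 were lower after 7 than after 4 cycles. Cpa3 and Kit passed only through their 2 cycle value, and the other 7 also had a median of -0.58. The exception above 0 among tested members was Ear2, an eosinophil ribonuclease, at 1.24 and 1.66 FPKM (0.39). Over all 19 found members of this list 6 lay above 0 and 11 below, with a median of -0.16. Of 25 tested macrophage genes 0 were called higher and 1 lower. Of these 25, 16 lay above 0 (median 0.12, or 14 of 25 and 0.04 when rescaled to a common sum), against 52.2% of all tested genes. Apoe, which macrophages make in quantity, read 966 and 1512 FPKM (0.65), Trem2, a lipid receptor, 16.6 and 23.5 (0.50) and C1qb 128 and 179 (0.49), and these 3 were highest in the 4 cycle group. Cd163, a scavenger receptor of resident macrophages, was called lower at 2.34 and 1.10 FPKM (-1.03). The lineage markers Csf1r and Cd68 read 28.3 and 28.0 (-0.02) and 31.0 and 31.4 (0.02), and Itgam, an integrin of myeloid cells, 16.7 and 13.6 (-0.29). Gpnmb, a glycoprotein of lipid-laden macrophages that is not on this list and was named after its values were seen, was called higher. It read 5.27 and 10.9 FPKM (1.04).

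Of the chemokine and colony stimulating factor genes, 1 of 16 was called lower, 0 higher, and 12 lay below 0 (median -0.11). Cxcl3, a neutrophil chemokine, read 5.88 and 2.37 FPKM (-1.27) and the platelet chemokine Pf4 39.6 and 27.7 (-0.52). Other ligands of Cxcr2 lay on both sides of 0, with Cxcl5 at 1.21 and 2.13 (0.77), Cxcl1 at 5.55 and 8.08 (0.53) and Cxcl2 at 3.07 and 2.14 (-0.50). Dendritic cell genes had 0 of 10 called and a median of -0.09. Ccl22, a chemokine of mature dendritic cells, read 2.51 and 1.86 (-0.41), the lectin Clec10a 2.41 and 2.98 (0.30), the homing receptor Ccr7 2.05 and 1.82 (-0.16) and Irf8, a lineage factor, 20.7 and 18.8 (-0.14).

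Stromal genes were lower after 4 cycles by less than 2-fold in most cases. Col1a1, the main chain of type I collagen, read 241 FPKM after 2 cycles and 155 after 4 cycles (-0.63), against 380 in vehicle and 76.5 after 7 cycles. Col6a3 read 9.32 and 4.91 FPKM (-0.91), Col12a1 23.3 and 15.2 (-0.61) and Col5a2 43.3 and 28.3 (-0.61). Of 20 tested collagens, 0 were called at 2-fold, 6 were lower and 0 higher at 1.5-fold, and 17 lay below 0, with a median of -0.55. Over all 30 found collagens 11 lay above 0 and 19 below, with a median of -0.38. In 16 of the 20 tested collagens both groups were below vehicle, and 19 of the 20 were lower after 7 than after 4 cycles. Crosslinking and processing genes had 15 of 19 below 0 (median -0.28), led by the lysyl oxidases Loxl1 at 9.14 and 5.41 FPKM (-0.75) and Loxl2 at 8.21 and 5.0 (-0.71), followed by the procollagen peptidases Adamts2 at 6.31 and 3.91 (-0.68) and Adamts14 at 4.11 and 2.72 (-0.58). Matrix metalloproteinases and inhibitors had 16 of 19 below 0 (median -0.32), with Adamts12 at 1.29 and 0.629 (-0.93), the aggrecanase Adamts4 at 8.08 and 5.31 (-0.60), the neutrophil collagenase Mmp8 at 2.45 and 1.65 (-0.55) and Mmp3, stromelysin, at 37.2 and 25.6 (-0.54).

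Fibroblast identity genes lay on both sides of 0. Of 30 tested, 1 was called higher and 2 lower, and the median was -0.33. Twist2, a transcription factor of mesenchymal cells, read 3.14 and 1.2 FPKM (-1.32), Igfbp5, which binds insulin-like growth factors, 3.88 and 1.86 (-1.02) and the microfibril gene Fbn1 8.36 and 5.31 (-0.65). Ogn, the proteoglycan osteoglycin, was higher at 0.662 and 1.49 FPKM (1.06), Dcn, decorin, read 27.6 and 32.9 (0.25) and Pdgfra, a receptor of fibroblasts, 10.6 and 10.7 (0.01). Among TGF beta pathway genes, 1 of 23 was called: Bmp2, a bone morphogenetic protein, read 1.70 and 0.702 (-1.17), and its antagonist Grem1 6.25 and 3.44 (-0.84). Ltbp2 and Ltbp1, latent TGF beta binding protein family members, read 40.9 and 28.4 (-0.52) and 21.8 and 16.3 (-0.42). The mesenchymal transition list had 9 of 10 below 0 and 0 called, with S100a4 at 168 and 114 FPKM (-0.55), the transcription factor Prrx1 at 1.77 and 1.23 (-0.49), Fn1, fibronectin, at 479 and 354 (-0.44) and Vim, vimentin, at 806 and 665 (-0.28).

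Endothelial genes lay below 0 in 21 of 22 tested members, with 0 called at 2-fold, 7 lower and 0 higher at 1.5-fold, and a median of -0.46. In 4 of the 22 only 1 of the 2 groups reached 1 FPKM, and the other 18 also had a median of -0.46. Vwf, von Willebrand factor, read 1.12 and 0.629 FPKM (-0.74), Plvap, which forms the diaphragms of vessel pores, 22.7 and 13.9 (-0.70), Flt1, a VEGF receptor, 3.27 and 1.98 (-0.70) and Flt4, the receptor of lymphatic vessels, 1.02 and 0.614 (-0.65). Cdh5, the cadherin of endothelial junctions, read 10.1 and 6.41 (-0.64). The exception was Esm1, made by sprouting tip cells, at 3.20 and 4.47 FPKM (0.47). Pericyte and smooth muscle genes had 11 of 12 below 0 (median -0.23), of which the called member, Des, is also a muscle gene, and Kcnj8, a potassium channel of pericytes, read 1.58 and 0.789 (-0.91). Rgs5, a pericyte marker, read 3.88 and 2.71 (-0.51) and Myl9, a myosin light chain of smooth muscle, 7.01 and 5.34 (-0.39). Adipocyte genes lay below 0 in 15 of 15, with 0 called and a median of -0.38. Cidec, a lipid droplet protein, read 5.38 and 3.38 FPKM (-0.65), Plin1 2.54 and 1.63 (-0.61), Plin4 2.59 and 1.72 (-0.57) and Retn, resistin, 2.75 and 1.96 (-0.47). All 15 were above vehicle in both groups.

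Epithelial genes went the opposite way to the stroma. Of 26 tested members, 22 lay above 0, 1 was called higher and 0 lower, and 6 were higher and 1 lower at 1.5-fold, with a median of 0.22, or 21 above 0 and 0.14 when rescaled. Krt17, a keratin of basal and activated epithelium, read 7.01 FPKM after 2 cycles and 18.2 after 4 cycles (1.36), against 1.05 in vehicle and 31.9 after 7 cycles. Elf3, an epithelial transcription factor, read 2.52 and 4.78 (0.90), Trp63, the master factor of basal cells, 0.58 and 1.11 (0.83) and Cldn4, a tight junction claudin, 58.4 and 93.3 (0.67). Krt15 went down, at 1.13 and 0.589 FPKM (-0.84). All 26 were higher after 7 than after 4 cycles. Genes called higher that no list held included, chosen after their values were seen, further genes of polarized epithelium: S100a14 at 4.56 and 9.82 FPKM (1.09), the polarity gene Crb3 at 0.51 and 1.27 (1.17), the epithelial clathrin adaptor subunit Ap1m2 at 1.71 and 4.03 (1.19) and Mal2, a transcytosis protein, at 1.01 and 2.74 (1.35). Also called higher, and chosen in the same way, were Lbp, which binds bacterial lipopolysaccharide, at 5.97 and 18.5 (1.61) and Wnt6, a Wnt ligand, at 1.2 and 4.25 (1.74). Of 14 mammary secretory genes 4 were tested, with 1 called higher, 1 lower and 3 of 4 below 0 (median -0.18). Csn3, the milk protein kappa-casein, read 1.04 and 3.97 (1.83), Xdh, xanthine dehydrogenase, 28.2 and 24.0 (-0.23) and Mfge8, a milk fat globule protein, 60.9 and 55.9 (-0.12). Glycam1, a secreted mucin of mammary gland and lymph node vessels, read 4.89 FPKM after 2 cycles and was listed at 0 after 4 cycles, with 15.5 in regrowth.

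**Figure D4:**
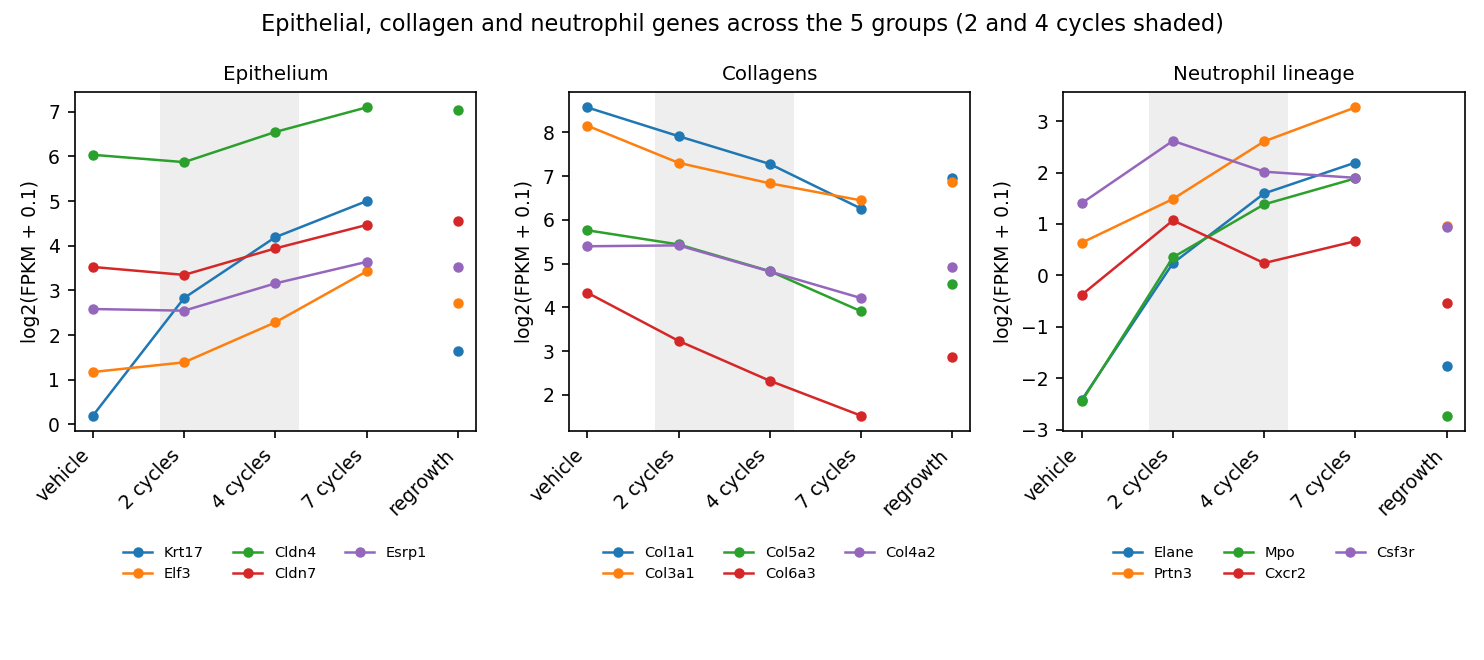
Group FPKM as log2(FPKM + 0.1) for 5 epithelial genes, 5 collagens and 5 genes of the neutrophil lineage; each point is 1 group value with no error, lines join vehicle, 2, 4 and 7 cycles, regrowth stands apart, and 2 and 4 cycles are shaded. Epithelial genes are higher and collagens lower from 2 to 4 to 7 cycles, and Elane, Prtn3 and Mpo are higher after 4 than after 2 cycles while Cxcr2 and Csf3r are lower.

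Among genes at 20 FPKM or more in the higher group, the largest changes were modest outside the plasma proteins. H19, an imprinted noncoding RNA on chromosome 7, read 76.9 FPKM after 2 cycles and 35.8 after 4 cycles (-1.10), against 193 in vehicle and 42.6 after 7 cycles. Mir675, which lies inside H19, read 264 and 129 FPKM (-1.04), and its reads cannot be told apart from those of H19. Angptl2, an angiopoietin-like secreted protein, read 35.4 and 17.9 FPKM (-0.98), Cpxm1, a carboxypeptidase-like matrix protein, 31.9 and 18.9 (-0.75) and Serpina3g, a protease inhibitor, 21.8 and 13.7 (-0.66). On the other side, Lars2, mitochondrial leucyl-tRNA synthetase, read 31.4 and 53.7 (0.77), Mgst1, a membrane-bound glutathione transferase, 25.4 and 39.0 (0.62) and Slc7a5, an amino acid transporter, 18.3 and 27.8 (0.60). Of the 140 called genes, 3 higher and 2 lower ones reached 20 FPKM.

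Drug handling, metabolic and proliferation genes differed little. Of 24 drug handling and alkylation repair genes, 0 were called at 2-fold and 3 were higher at 1.5-fold, with a median of 0.13. Gsta4, a glutathione transferase, read 6.31 and 10.7 FPKM (0.76), Mgst2 7.74 and 12.0 (0.62) and Mgmt, which removes alkyl groups from guanine, 1.22 and 1.81 (0.53). The efflux pump gene Abcc1 read 6.10 and 4.72 (-0.36). Cell cycle genes had 0 of 35 called and a median under 0.01 in size, with Mki67 at 14.2 and 12.2 FPKM (-0.22), Foxm1 at 10.1 and 8.41 (-0.26), E2f1, a factor of S phase entry, at 8.31 and 7.04 (-0.24) and Rrm2, a ribonucleotide reductase subunit, at 18.6 and 16.4 (-0.18). The p53 target list had 0 of 23 called and a median of 0.07, which rescaling took to just under 0, with the cell cycle inhibitor Cdkn1a at 24.6 and 24.1 (-0.03), both above its vehicle value of 9.78. Its largest differences were in the death receptor Fas at 3.55 and 4.83 (0.44), Perp at 22.9 and 29.5 (0.36), Gadd45a at 90.6 and 108 (0.26) and Aen at 6.58 and 5.52 (-0.25). Oxidative phosphorylation genes lay above 0 in 23 of 24 with small differences (median 0.15, or 20 of 24 and 0.08 when rescaled, the largest 0.37 for Ndufa4, at 90.0 and 117 FPKM). Ndufb9 read 126 and 156 (0.31), Cox6c 133 and 158 (0.25) and Atp5o 70.9 and 84.0 (0.24). Sterol synthesis genes had a median of -0.10 and 0 of 22 called. The sterol reductase Dhcr7 read 4.67 and 3.97 (-0.23) and Lss, lanosterol synthase, 1.43 and 1.21 (-0.23).

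**Figure D5:**
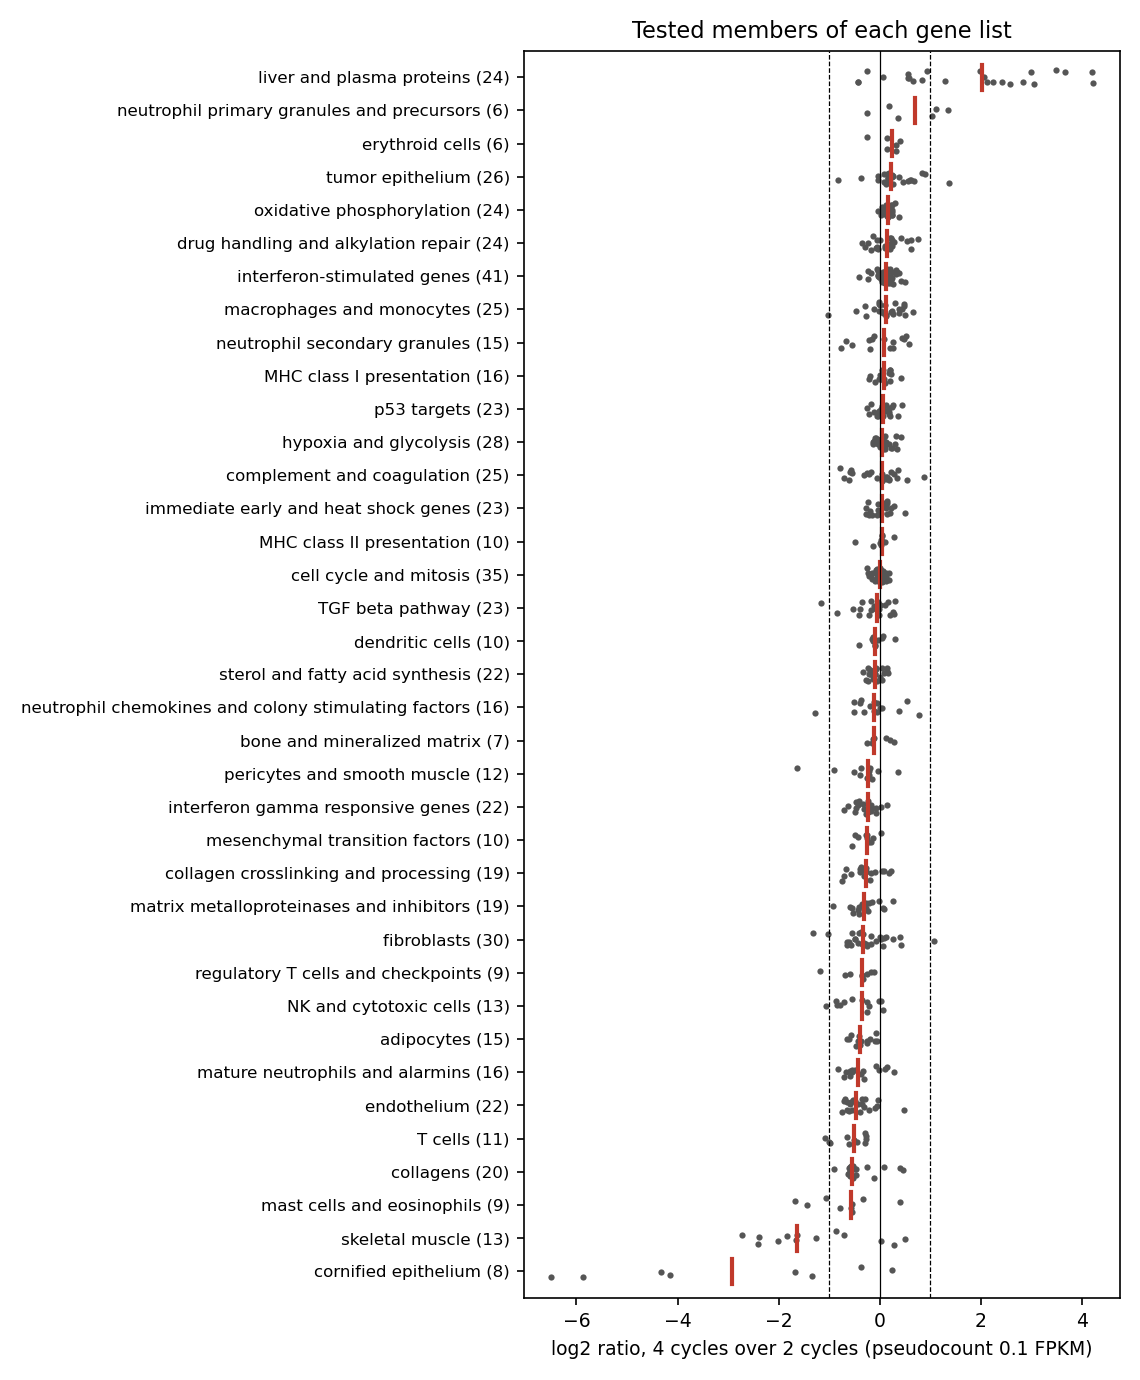
Log2 ratio of 4 over 2 cycles (x axis, pseudocount 0.1 FPKM) for every tested member of each gene list with at least 6 tested members (number in parentheses); each gray point is a gene, red bars are list medians and dashed lines mark 2-fold. The liver list stands at the top with a median of 2.02 and the cornified and muscle lists at the bottom with -2.92 and -1.64.

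The place of the other groups was counted for each direction. Genes were called on their 2 and 4 cycle values, so this choice itself weighs on the counts, and shares over all tested genes are not given. Of the 71 genes called higher, the vehicle value was below both groups in 43, between them in 26 and above both in 2. Of these 71, 37 were higher again after 7 cycles and 34 lower, and 53 were lower in regrowth than after 4 cycles. Of the 69 genes called lower, vehicle was below both groups in 20, between them in 30 and above both in 19. Of these 69, 40 were higher after 7 than after 4 cycles and 29 lower, and 41 were higher in regrowth than after 4 cycles. Low levels weigh on these counts: 39 of the 71 and 45 of the 69 were below 1 FPKM in the lower group, and 6 of the 71 and 21 of the 69 were microRNA or small nucleolar RNA rows, short genes that often lie inside longer ones.

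Ratios also moved with transcript length. The longest annotated transcript was known for 96.2% of tested genes. With tested genes split by length into 4 equal bins, the shortest bin spanned transcripts of 43 to 2018 nt, with a median log2 ratio of 0.08 and 66.3% of genes above 0. In the bin of the longest, from 4649 nt, these were -0.08 and 32.4%. Collagen transcripts are long, with a median of 6284.5 nt. Centred on the median of genes in the same length bin, an alternative added after seeing the data, the collagen median was -0.47, that of oxidative phosphorylation 0.10, that of ISGs 0.11 and that of gamma responsive genes -0.26. What moves with length was not tested.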

How the data were processed

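RNA from 4T1 tumors was sequenced as strand-specific libraries of polyadenylated RNA, each from a pool of 2 to 3 tumors. The submitters' notes on processing list edgeR, featureCounts and TopHat2, with mm9 as the genome build. Tool versions and the gene annotation were not given in the sources used here. In the deposited table each gene has 1 FPKM value for each group, which the authors computed as a mean over pools. Its further columns hold the authors' comparisons of each CPA group with vehicle (ratio, fold change and p-value) and were not used. Sample groups came from the labels, and 27 rows with a date in place of a symbol were left out. Of 24170 symbols, 23251 matched the reference tables. Log2 ratios were computed with Python 3.11 and pandas from the 2 group values with a pseudocount of 0.1 FPKM. Genes were called at 2-fold with at least 1 FPKM in the higher group. The calling step was run on simulated data with changes well past the limit and little noise. That run checks the code only and gives no error rate for the calls made here. No test was possible with 1 value per group, so a planned fit across libraries was not made. The table gives no depth per library, the read totals of the study were not used here, and no interval is given. The members and the 41 gene lists were chosen with earlier results of these data known. Named genes are the 12 largest changes each way, the 8 largest each way at 20 FPKM or more, the 4 largest in each list described, predicted genes and short RNAs left out, and 14 genes that the study measured by PCR. Some genes under this rule are not reported here. Other genes were named after their values were seen. Alternatives were other fold limits, FPKM minimums, pseudocounts, scalings and gene sets. Promoters are from RefSeq on GRCm38.p6, and transcript lengths from GENCODE.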

Additional observations from a re-analysis of the deposited data

How the results depend on the processing

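The number of genes called after 4 against 2 cycles followed the limits. At a fold limit of 1.5, 183 genes were higher and 263 lower, and at 3, 36 and 28. With an FPKM minimum of 0.5, 117 were higher and 113 lower, with 3 FPKM 35 and 28, and with no minimum 246 and 255. A pseudocount of 1 FPKM gave 38 and 28, and one of 0.01 FPKM gave 78 and 76. Other settings stayed within 1.5 times the main counts. A common sum of FPKM gave 60 and 79, and centring on the median 69 and 70. Leaving out predicted genes, clones and short RNAs gave 63 and 47. Leaving out the liver, cornified and muscle lists, a setting added after seeing the data, gave 57 and 55. Hepatocyte and skin genes off those lists were kept in that count. Of 52 named genes, Prf1 missed 2-fold with a pseudocount of 1 FPKM, at -0.94, and Angptl2 passed it with a common sum, at -1.06. Foxp3, which is under 1 FPKM in both groups and was not tested, went from -1.08 to -0.18 with the pseudocount of 1 FPKM. The sign of a called gene could not change under these settings. A pseudocount keeps the sign of a ratio, and a common sum and centring shift ratios by no more than about 0.08 and 0.01. With no FPKM minimum, 13 of 41 list medians moved by over 0.1, most through members read at under 1 FPKM. Leaving out a replicate could not be run, since the table holds no value per library. No paired analysis was possible because the group values carry no replicate number. The table gives no read numbers for genes near 1 FPKM, so their counting error could not be given.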

Other observations

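Of the 17 B cell and plasma cell genes found, 3 were tested and 0 called: Cd22, a B cell lectin, read 1.10 and 0.969 FPKM after 2 and 4 cycles (log2 ratio -0.17), and Xbp1 and Sdc1, which epithelial cells also make, 36.6 and 49.9 (0.45) and 41.1 and 36.9 (-0.15). The others lay below 1 FPKM in both groups. Cd79a, a chain of the B cell receptor, read 1.54 FPKM in vehicle, 0.562 after 2 cycles, 0.177 after 4 cycles, 0.135 after 7 cycles and 4.24 in regrowth. Ms4a1, which encodes CD20, read 0.793, 0.145, 0.0113, 0.00576 and 1.82 FPKM in the same order. Both genes were lower after 2 cycles than in vehicle, lower again after 4 cycles, and highest in regrowth. With no FPKM minimum, 8 of the 17 were at least 2-fold lower after 4 than after 2 cycles. These values have no replicate check.

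Erythroid genes were above vehicle in both groups. The globin genes Hba-a1 and Hbb-b1 read 28.0 and 30.9 FPKM (log2 ratio 0.14) and 69.2 and 87.0 (0.33) after 2 and 4 cycles, and Alas2, the enzyme of heme synthesis in red cell precursors, read 1.48 and 1.99 (0.41). Car2, carbonic anhydrase 2, read 2.03 and 1.70 (-0.24). Each globin gene has a near-identical copy with almost the same value, so reads are shared between copies. The median of the 6 tested erythroid genes was 0.23, and 0.06 when centred on genes of like transcript length. Coagulation genes lay on both sides of 0: F10 read 6.35 and 3.66 FPKM (-0.78), F7 5.09 and 3.08 (-0.71), the complement inhibitor Cd55 1.70 and 1.07 (-0.61), and F5 0.737 and 1.44 (0.88). The ribosomal RNA precursor Rn45s read 282 FPKM after 2 cycles and 402 after 4 cycles (0.51), with 521 in regrowth.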
